A study of Homo sapiens with 27 samples.

Results

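Cholesterol synthesis was described here through 8 genes, 6 that encode enzymes of the pathway and 2 that encode its regulators, in IMR90, a fibroblast line from normal human fetal lung. The genes were given by name, with earlier results of these data known, and they are 8 of the 60534 gene identifiers shared by all deposited files. In the order of the pathway the enzymes are HMGCS1, which joins acetyl-CoA units into HMG-CoA; MVD, which makes isopentenyl diphosphate from a mevalonate intermediate; IDI1, which interconverts the isoprene building blocks; FDFT1 (squalene synthase), which makes squalene; SQLE, which oxidises squalene and is a rate-limiting step; and LSS, which closes the oxidised squalene into lanosterol, the first sterol. The regulators are SREBF2, which encodes the transcription factor SREBP2, and INSIG1, which encodes a protein that holds the SREBP escort in the endoplasmic reticulum. All 8 genes passed the filter on low counts in both assays, and their genes lie on chromosomes 5 (HMGCS1), 10 (IDI1), 16 (MVD), 8 (FDFT1 and SQLE), 21 (LSS), 7 (INSIG1) and 22 (SREBF2).

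As background, cells adjust cholesterol synthesis by feedback. When membrane cholesterol of the endoplasmic reticulum is low, SREBP2 and its escort SCAP move to the Golgi, where the proteases encoded by MBTPS1 and MBTPS2 release the active factor, which turns on the genes of the pathway, INSIG1 and its own gene included. When sterols are plentiful, the proteins INSIG1 and INSIG2 keep SCAP and SREBP2 in the endoplasmic reticulum, and SQLE and INSIG1 are themselves proteins of that membrane whose stability depends on sterols. Dividing fibroblasts need cholesterol for new membrane.

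RNA-seq (13 libraries) counts mRNA, and ribosome profiling (Ribo-seq, 14 libraries) counts the stretches of mRNA shielded by ribosomes during a nuclease digest, and the footprint count of a gene thus follows both its mRNA level and its ribosome load. The 5 states were cycling cells, kept subconfluent; quiescent cells, arrested by contact inhibition; senescent cells taken 10 days after 15 Gy of ionizing radiation (irradiated); senescent cells after 3 treatments with 50 µM etoposide, a topoisomerase II poison, at 10 days (etoposide); and cycling cells given 25 nM thapsigargin for 3 h, a drug that blocks calcium uptake into the endoplasmic reticulum and so causes stress there. There were 3 libraries per state and assay, but 2 for cycling RNA-seq and 2 per assay with thapsigargin. All cells were of the same line, with no genetic change named. The labels do not say whether the replicates were separate cultures, so p-values measure only the spread between these libraries. All comparisons with cycling cells share the same cycling libraries.

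Promoter sequence is shown because the pathway's genes are known as shared targets of SREBP2 and moved together in one of the states. RefSeq (GRCh38.p14) windows of 250 bases before the start were found for 6 of the 8 symbols, with 9 windows in all since some genes have several starts. Both strands were searched for 4 motifs: TCACNCCAC, a spelling of the sterol regulatory element that SREBP binds; CACGTG, an E-box; CCAAT, bound by NF-Y; and GGGCGG, bound by Sp1. The lines below give the 4 windows that show these best, read 5′ to 3′ on the gene's strand, with TCACNCCAC, CACGTG and CCAAT (or its complement ATTGG) in capitals. They are SREBF2 at chr22:41832855-41833104 on the plus strand, INSIG1 at chr7:155297628-155297877 on the plus strand, HMGCS1 at chr5:43313413-43313662 on the minus strand and MVD at chr16:88663092-88663341 on the minus strand.
SREBF2: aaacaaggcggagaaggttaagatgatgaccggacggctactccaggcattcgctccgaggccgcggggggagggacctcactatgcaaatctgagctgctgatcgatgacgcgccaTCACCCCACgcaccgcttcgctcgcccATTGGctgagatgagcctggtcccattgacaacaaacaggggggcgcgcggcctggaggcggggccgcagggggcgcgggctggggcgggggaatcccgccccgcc
INSIG1: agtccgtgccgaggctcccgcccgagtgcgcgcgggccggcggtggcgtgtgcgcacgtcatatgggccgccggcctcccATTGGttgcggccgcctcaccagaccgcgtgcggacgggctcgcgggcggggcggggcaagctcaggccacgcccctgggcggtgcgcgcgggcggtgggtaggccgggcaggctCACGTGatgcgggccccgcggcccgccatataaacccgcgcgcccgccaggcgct
HMGCS1: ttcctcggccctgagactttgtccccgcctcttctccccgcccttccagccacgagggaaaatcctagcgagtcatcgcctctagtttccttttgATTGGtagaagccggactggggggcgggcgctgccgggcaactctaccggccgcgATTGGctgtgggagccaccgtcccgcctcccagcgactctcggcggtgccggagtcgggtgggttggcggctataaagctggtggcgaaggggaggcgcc
MVD: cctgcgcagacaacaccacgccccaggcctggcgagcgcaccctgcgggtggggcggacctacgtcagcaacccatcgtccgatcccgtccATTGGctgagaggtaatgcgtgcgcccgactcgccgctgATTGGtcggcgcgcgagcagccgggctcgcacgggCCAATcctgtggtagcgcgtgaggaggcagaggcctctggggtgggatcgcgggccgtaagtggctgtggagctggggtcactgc
The element TCACNCCAC was found in 1 of the 9 windows, that of SREBF2, at position -133 from the start, and in 0.883% of all 35116 windows of this length. No window of INSIG1 or of the enzymes held this spelling. CACGTG stood in 1 of the 9, the INSIG1 window, at -55, and in 6.34% of all windows. CCAAT was in 7 of the 9 windows and in at least 1 window of each of the 6 genes, against 32.0% of all windows, and it occurred 3 times in the MVD window. GGGCGG was in all 9, against 42.6% of all windows. A match is a description of the letters and no evidence of binding.

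Library totals ran from 20635503 to 57119841 gene counts for RNA-seq and from 1936976 to 19996104 for Ribo-seq, so that the lowest count of a cholesterol gene was 752 in RNA-seq (SQLE) and 24 in Ribo-seq (INSIG1). The thapsigargin libraries stood apart in several ways. Their RNA-seq left 1.35 to 1.40% of reads unmapped, against 27.9 to 40.7% elsewhere, their Ribo-seq was the shallowest (1936976 and 2044900 counts, with 65.2 and 66.9% of reads mapping to several places against 19.8 to 31.9% elsewhere), and the labels describe their culture medium differently, without antibiotics. All 8 fibroblast markers checked had counts in every state. Their summed level in RNA-seq was 8930.0 to 14521 counts per 1000000 (CPM) over all libraries, and in Ribo-seq it was 11901 to 12607 CPM with thapsigargin against 34954 to 36772 CPM in cycling cells. The RNA-seq sum hid falls of single markers. With thapsigargin, 5 of the 8 fell and 0 rose in mRNA (edgeR adjusted p under 0.05), where 1689 of 13201 genes tested fell. The largest of these falls was that of COL3A1 (log2 -2.65, SE 0.41). The mean of VIM mRNA was 6401 CPM with thapsigargin and 5183 CPM in cycling cells. The 6 markers of epithelial, endothelial and blood cells summed to at most 2.44 CPM in RNA-seq and 3.72 CPM in Ribo-seq. In bulk libraries, fewer cells of a type and less RNA per cell cannot be told apart. CPM are not corrected for gene length, so levels are compared between libraries and never between genes.

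Thapsigargin for 3 h raised the mRNA of 7 of the 8 genes above cycling cells, where 11.8% of the 13201 genes tested rose and 24.6% changed in either direction. The median log2 fold change over the 8 was 1.15, beside -0.03 over all genes tested. The largest of these increases were those of HMGCS1, MVD and IDI1, and SREBF2 was the gene that did not pass the test. Ribosome footprints rose for 5 of the 8, all of them enzymes, where 20.0% of 11689 genes rose and 44.4% changed in either direction, and the median over the 8 was 0.87, beside -0.11 over all genes. A gene was called at an adjusted p under 0.05 in edgeR's quasi-likelihood test over all genes. These calls held in every alternative fit that was run. The unmapped share, the medium, the depth of the libraries and the identifier list of the Ribo-seq files differ along with the drug, however, and cannot be told apart from it.

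HMGCS1 moved most. Its mRNA was at 100.1 and 87.9 CPM in the cycling libraries and at 465 and 505 CPM with thapsigargin. The groups lay far apart, with a log2 fold change of 2.37 (SE 0.13, adjusted p = 1.18e-07), or 5.16-fold. Footprints on HMGCS1 stood at 210.2, 212 and 226 CPM in cycling cells and at 1009 and 993 CPM with thapsigargin, a log2 fold change of 2.21 (SE 0.11, adjusted p = 2.3e-08). The mRNA of MVD went from 38.8 and 44.7 CPM to 156 and 193 CPM, 4.19-fold higher (log2 2.07, SE 0.26, adjusted p = 0.000105). Its footprints went from 38.8, 30.8 and 43.8 CPM to 153 and 178 CPM, 4.39-fold higher (log2 2.14, SE 0.17, adjusted p = 1.09e-06). Both assays thus gave MVD almost the same change, with no overlap between the groups.

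IDI1 mRNA was at 122 and 117 CPM in cycling cells and at 551 and 339 CPM with thapsigargin. The treated libraries differed from each other by more than the whole cycling level, yet both lay above the cycling ones (log2 1.90, SE 0.19, adjusted p = 1.86e-05). IDI1 footprints rose from 111, 122 and 118 CPM to 309 and 346 CPM, 2.80-fold (log2 1.49, SE 0.15, adjusted p = 5.41e-06). For FDFT1, at the branch point where the pathway commits to sterols, mRNA was 199 and 176 CPM in cycling cells and 382 and 441 CPM with thapsigargin, 2.19-fold higher (log2 1.13, SE 0.16, adjusted p = 0.000206). FDFT1 footprints were at 634, 658 and 604 CPM against 1050.5 and 1301 CPM (log2 0.90, SE 0.16, adjusted p = 0.000516). The groups did not overlap for either gene in either assay.

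SQLE and LSS, the enzymes that make and use squalene epoxide, had lower estimates in footprints than in mRNA, as did the other genes described here except MVD. SQLE mRNA rose from 93.3 and 86.0 CPM to 196 and 194 CPM (log2 1.12, SE 0.19, adjusted p = 0.00103). Its footprints were at 126, 136 and 146 CPM in cycling cells and at 205 and 209 CPM with thapsigargin, apart from each other but short of the threshold (log2 0.61, SE 0.27, adjusted p = 0.0846). LSS mRNA was 135 and 173 CPM in cycling cells and 303 and 391 CPM with thapsigargin (log2 1.17, SE 0.21, adjusted p = 0.00132). LSS footprints went from 232, 209 and 221 CPM to 376 and 346 CPM, 1.64-fold higher (log2 0.71, SE 0.09, adjusted p = 4.04e-05). SQLE footprints passed the threshold without the Ribo-seq library of quiescent replicate 1 (adjusted p = 0.00496) and when only cycling and thapsigargin libraries were fitted (adjusted p = 0.0094).

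The regulators were less alike. INSIG1 mRNA was 271 and 253 CPM in cycling cells and 642 and 495 CPM with thapsigargin, 2.17-fold higher (log2 1.12, SE 0.14, adjusted p = 7.8e-05). INSIG1 footprints, at 45.6, 48.5 and 61.8 CPM against 67.1 and 118 CPM, did not overlap but did not pass (log2 0.84, SE 0.34, adjusted p = 0.0578). They passed without quiescent replicate 1 (log2 0.81, adjusted p = 0.00952) and with only the compared groups fitted (adjusted p = 0.0416). With 1 library left out at a time, their change ran from 0.38 to 1.20. The upper end came without thapsigargin replicate 1, a fit with 1 treated library. SREBF2 mRNA was at 119 and 138 CPM in cycling cells and at 135 and 224 CPM with thapsigargin. One treated library thus lay among the cycling values and the other well above them (log2 0.49, SE 0.21, adjusted p = 0.117). With 1 library left out at a time, the SREBF2 change ran from 0.09 to 0.82. The upper end came without thapsigargin replicate 1, the lower of the treated libraries, so the estimate rests on which treated library is kept. SREBF2 footprints were at 134, 126 and 134 CPM in cycling cells and at 118 and 112 CPM with thapsigargin, the only gene of the 8 whose treated footprint libraries all lay below the cycling ones, by a change that did not pass (log2 -0.19, SE 0.23, adjusted p = 0.526).

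**Figure D1:**
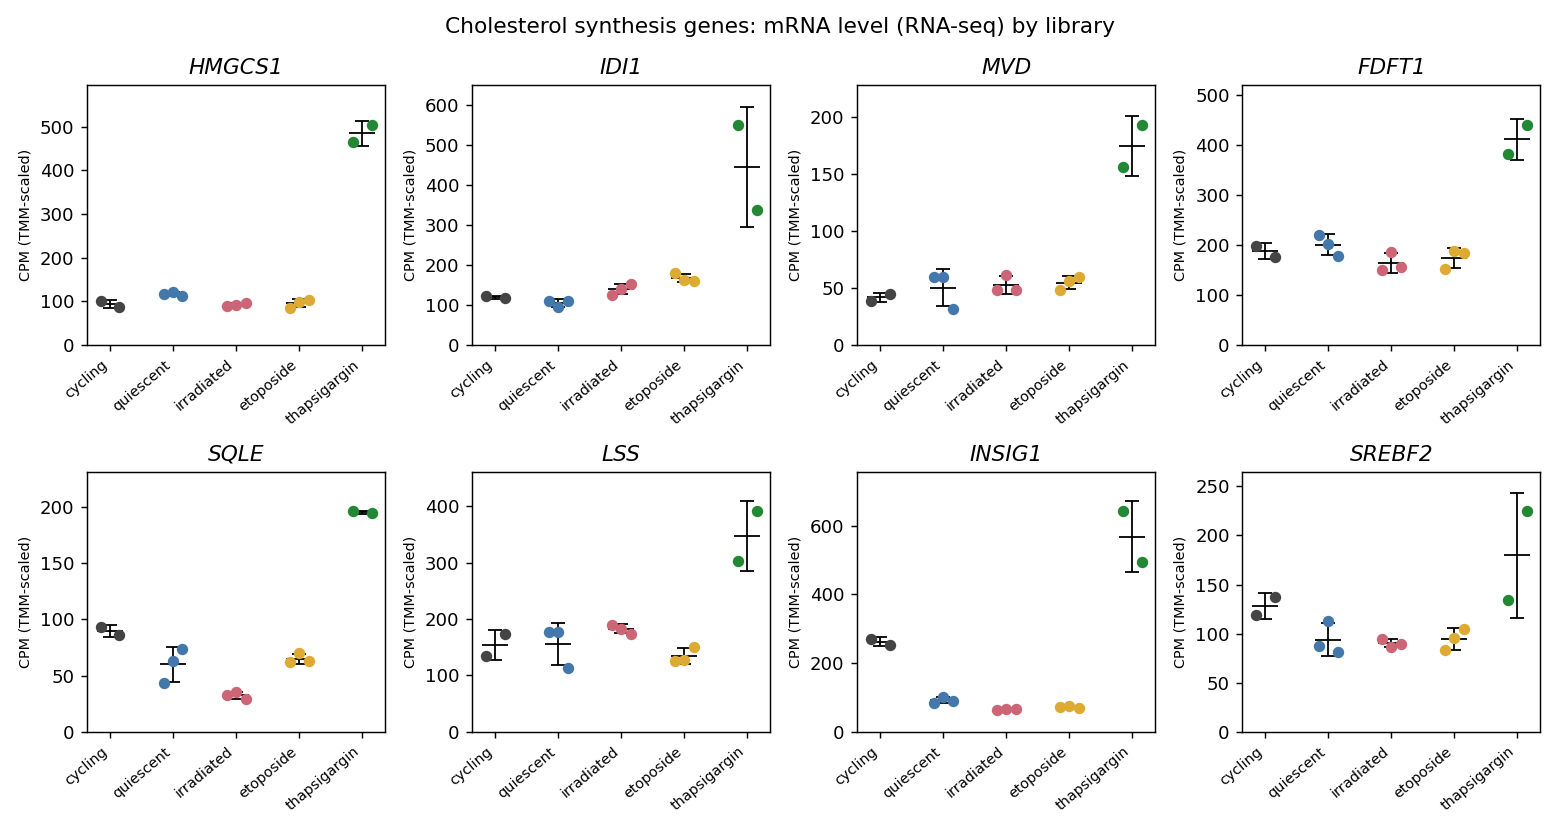
RNA-seq level in CPM of each of the 8 genes, 1 panel per gene, with a point for every library and a line with bars for the mean ± SD of each of the 5 states; the vertical axes start at 0 and differ between panels. The thapsigargin points stand highest in all 8 panels except for 1 SREBF2 library, and the INSIG1 points of the arrested states lie between 62.4 and 102 CPM, below both cycling points.

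**Figure D2:**
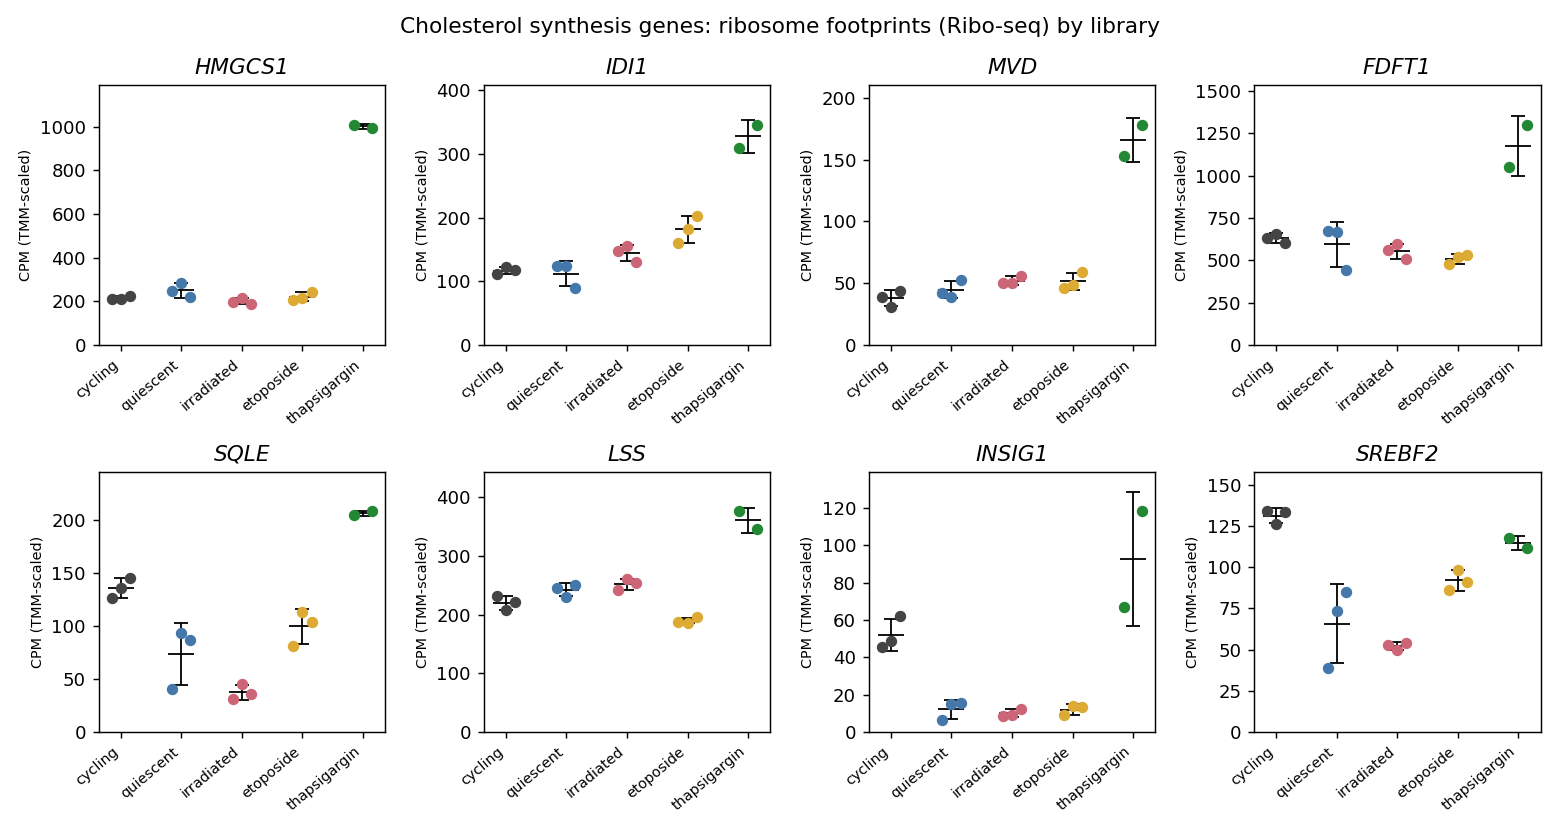
Ribo-seq level in CPM of the same 8 genes, with a point for every library and a line with bars for the mean ± SD of each state; the vertical axes start at 0 and differ between panels. SREBF2, SQLE and INSIG1 footprints are low in the quiescent and irradiated libraries, and those of INSIG1 are as low in the etoposide libraries. HMGCS1 footprints stand at 1009 and 993 CPM with thapsigargin.

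The rest of the pathway was read from lists set by known function, but chosen with earlier results of these data known. Of 12 other enzymes of mevalonate and sterol synthesis, 10 rose and 0 fell in mRNA with thapsigargin, where 11.8% of all genes tested rose. Their median log2 fold change was 1.10. The largest change was that of HSD17B7, an enzyme of the later steps (log2 1.85, SE 0.20), followed by NSDHL (1.46, SE 0.21), MSMO1 (1.39, SE 0.21) and ACAT2, which makes acetoacetyl-CoA (1.31, SE 0.12). In footprints 7 of the 12 rose and 1 fell, where 20.0% of all genes rose, with HSD17B7 again at the top (log2 2.23, SE 0.35). Of 5 other genes of SREBP processing (SCAP, INSIG2, MBTPS1, MBTPS2 and SREBF1), 0 passed in mRNA in edgeR's test, with 1 at an unadjusted p under 0.05, and 2 fell in footprints, where 24.4% of all genes fell, MBTPS2 (log2 -1.36, SE 0.36) and SCAP (log2 -1.09, SE 0.32). Among 9 genes of fatty acid synthesis, 2 rose in mRNA, where 11.8% of all genes rose, FASN (log2 1.80, SE 0.37) and ACLY (log2 0.66, SE 0.15). In footprints 4 of the 9 rose and 1 fell, where 20.0% of all genes rose and 24.4% fell. Among 12 genes of cholesterol trafficking and efflux, 2 rose and 3 fell in mRNA, where 11.8% of all genes rose and 1689 of 13201 fell. The largest rise was that of STARD4, a sterol carrier (log2 2.21, SE 0.24). The exporters ABCG1 (log2 -2.73, SE 0.43) and ABCA1 (log2 -1.18, SE 0.22) fell, as did MYLIP (log2 -0.93, SE 0.24). In footprints 3 of the 12 rose and 4 fell, where 20.0% of all genes rose and 24.4% fell.

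Translational efficiency, the change in footprints relative to the change in mRNA, was tested as an interaction over all 27 libraries. With thapsigargin, 0 of the 8 genes passed in edgeR's test, and 0 reached an unadjusted p under 0.05, where 20.8% of 11639 genes passed. The log2 changes in efficiency ran from -0.66 (SREBF2, SE 0.32, adjusted p = 0.149) to 0.09 (MVD, SE 0.32, adjusted p = 0.867). For 7 of the 8 the estimate was below 0, with HMGCS1 at -0.13 (SE 0.17) and LSS at -0.44 (SE 0.23). Single libraries moved this count: SREBF2 passed at -0.70 (adjusted p = 0.0413) without the Ribo-seq library of quiescent replicate 1. With 1 library left out at a time, the SREBF2 estimate ran from -0.97, without the RNA-seq library of thapsigargin replicate 1, to -0.24. IDI1 stood at -0.39 with all libraries. Its estimate was -0.70 without the RNA-seq library of thapsigargin replicate 2 and 0.01 without that of replicate 1. Among the 12 other sterol enzymes 1 passed, MVK, whose efficiency was lower (log2 -1.20, SE 0.31, edgeR adjusted p = 0.00908).

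**Figure D3:**
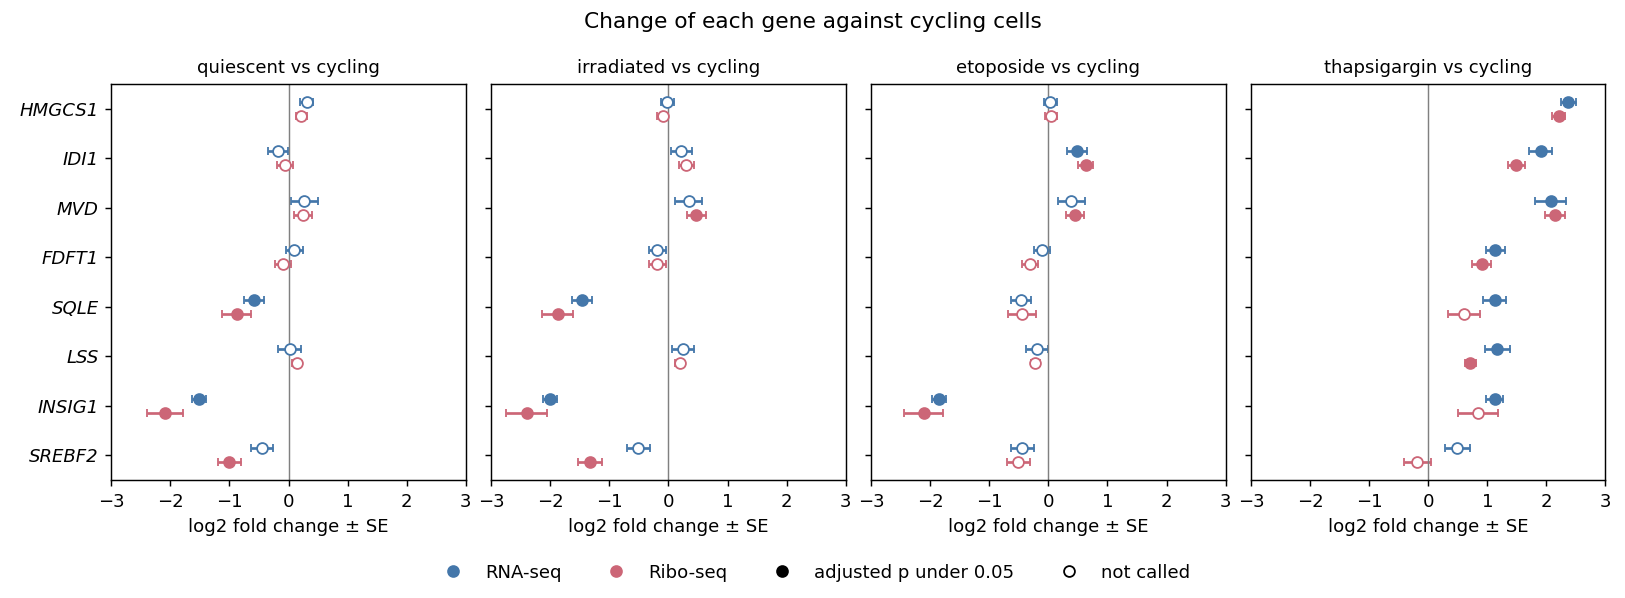
Log2 fold change against cycling cells (horizontal axis) of the 8 genes in each of the 4 other states, RNA-seq and Ribo-seq side by side, with bars of 1 SE and filled points for changes that passed the test. With thapsigargin the RNA-seq points lie between 0.49 and 2.37, and in the 3 arrested states the INSIG1 points lie between -1.51 and -2.40.

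In the arrested states the 8 genes did not move as a group. INSIG1 fell in quiescent, irradiated and etoposide cells in both assays, SQLE fell in quiescent and irradiated cells, and SREBF2 footprints fell in the same states, whereas none of HMGCS1, MVD, IDI1, FDFT1 and LSS fell against cycling cells in either assay with all libraries fitted. In mRNA, 2 of the 8 passed in quiescent cells (15.6% of all genes tested passed), 2 in irradiated cells (35.0%) and 2 in etoposide cells (34.6%). In footprints, 3 passed in quiescent cells (21.7%), 4 in irradiated cells (39.8%) and 3 in etoposide cells (34.2%). As shares of the list these counts are near the shares of all genes, and the median log2 fold changes of the 8 lay between -0.08 and -0.26 in the 6 comparisons.

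INSIG1 changed most in every arrested state. Its mRNA, 271 and 253 CPM in cycling cells, was 85.1, 102 and 89.7 CPM in quiescent cells (log2 -1.51, SE 0.12, adjusted p = 7.22e-05). It was 62.4, 66.0 and 67.2 CPM in irradiated cells (log2 -2.01, SE 0.12, adjusted p = 1.13e-07) and 70.9, 75.0 and 69.8 CPM in etoposide cells (log2 -1.86, SE 0.12, adjusted p = 9.53e-08). All 9 arrested libraries lay far below both cycling ones. Footprints on INSIG1, 45.6, 48.5 and 61.8 CPM in cycling cells, were at 6.31, 15.1 and 15.2 CPM in quiescent cells (log2 -2.09, SE 0.31, adjusted p = 0.000659). They were at 8.27, 9.09 and 12.3 CPM in irradiated cells (log2 -2.40, SE 0.35, adjusted p = 0.000123) and at 8.78, 13.7 and 13.4 CPM in etoposide cells (log2 -2.11, SE 0.33, adjusted p = 0.000204). These are falls of 4.27-fold, 5.30-fold and 4.33-fold in footprints, and each of the 6 calls held in every alternative fit run.

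SQLE was lowest in irradiated cells, while its levels in quiescent and etoposide cells overlapped in both assays and were not tested against each other. Its mRNA, 93.3 and 86.0 CPM in cycling cells, was 32.6, 35.8 and 29.6 CPM in irradiated cells, 2.74-fold lower (log2 -1.46, SE 0.17, adjusted p = 2.81e-05). In quiescent cells it was 43.4, 63.1 and 73.5 CPM (log2 -0.58, SE 0.17, adjusted p = 0.0364). That call was lost without any 1 of 5 RNA-seq libraries, namely cycling replicate 1 (adjusted p = 0.23) or 2 (adjusted p = 0.107), quiescent replicate 1 (log2 -0.39, adjusted p = 0.0693) or 2 (adjusted p = 0.0535), or irradiated replicate 1 (adjusted p = 0.0531), and when only the compared groups were fitted (adjusted p = 0.14). In etoposide cells SQLE mRNA stood at 62.4, 70.3 and 62.8 CPM, below both cycling libraries, and did not pass (log2 -0.46, SE 0.17, adjusted p = 0.0529). It passed without quiescent replicate 1 (adjusted p = 0.0104) or 3 (adjusted p = 0.0241), or thapsigargin replicate 1 (adjusted p = 0.0494) or 2 (adjusted p = 0.0491), and with only the compared groups fitted (adjusted p = 0.0054). SQLE footprints, 126, 136 and 146 CPM in cycling cells, were lowest in irradiated cells at 31.1, 45.0 and 35.8 CPM (log2 -1.88, SE 0.26, adjusted p = 9.46e-05). They were 40.4, 93.3 and 87.3 CPM in quiescent cells, where 1 library lay with the irradiated ones and the others did not (log2 -0.88, SE 0.24, adjusted p = 0.0182), and this call was lost without cycling replicate 3 (adjusted p = 0.0673) and with only the compared groups fitted (adjusted p = 0.0831). In etoposide cells they were 81.6, 114 and 104 CPM (log2 -0.45, SE 0.24, adjusted p = 0.176), which passed without quiescent replicate 1 (adjusted p = 0.0135) and with only the compared groups fitted (adjusted p = 0.00395).

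SREBF2 showed its clearest differences in footprints. They stood at 134, 126 and 134 CPM in cycling cells, at 52.8, 49.6 and 54.1 CPM in irradiated cells (log2 -1.33, SE 0.21, adjusted p = 0.000243) and at 38.8, 73.6 and 84.8 CPM in quiescent cells (log2 -1.0, SE 0.20, adjusted p = 0.00347). In etoposide cells they were 86.3, 98.6 and 91.1 CPM, all below the cycling libraries, by a change that missed the threshold (log2 -0.51, SE 0.20, adjusted p = 0.0641) and passed without quiescent replicate 1 (adjusted p = 0.000648) or 3 (adjusted p = 0.0319), and with only the compared groups fitted (adjusted p = 0.000206). SREBF2 mRNA was 119 and 138 CPM in cycling cells, 87.7, 113 and 80.8 CPM in quiescent cells, 94.5, 86.8 and 89.6 CPM in irradiated cells and 83.4, 95.4 and 105 CPM in etoposide cells. No arrested library reached the lower cycling one, and none of the 3 comparisons passed (log2 -0.45, -0.51 and -0.44, with adjusted p = 0.141, 0.0577 and 0.0955). All 3 passed without the RNA-seq library of thapsigargin replicate 1 (adjusted p = 0.0462, 0.01 and 0.0284) and likewise without replicate 2, while the changes moved little (-0.46, -0.55 and -0.45). The irradiated change also passed without quiescent replicate 2 (adjusted p = 0.0476) or 3 (adjusted p = 0.0489) and in DESeq2 (adjusted p = 0.0419), and with only the compared groups fitted the irradiated (adjusted p = 0.000168) and etoposide changes (adjusted p = 0.0148) passed.

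The difference between footprints and mRNA of SREBF2 was tested as translational efficiency. In irradiated against cycling cells it was -0.78 (SE 0.29) with an unadjusted p of 0.0124 and an adjusted p of 0.575, in quiescent cells -0.50 (SE 0.28) and in etoposide cells -0.08 (SE 0.28). None of the 8 genes passed in edgeR's interaction test in these comparisons, and 1, SREBF2 in irradiated cells, had an unadjusted p under 0.05. Over all 11639 genes 0.0172% passed in irradiated, 0.0430% in etoposide and 0% in quiescent cells. In etoposide cells these were 5 genes, and 9 with the replicate block, neither count holding any of the 8. When only the irradiated and cycling libraries were fitted, the SREBF2 change was -0.84 (adjusted p = 0.000627), and 753 genes passed in that fit in place of 2.

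HMGCS1, IDI1 and MVD, the enzymes of the earliest steps among the genes described here, did not fall in arrested cells. HMGCS1 mRNA, 100.1 and 87.9 CPM in cycling cells, was 116, 123 and 112 CPM in quiescent cells (log2 0.31, SE 0.11, adjusted p = 0.0789, and 0.0479 in DESeq2), 89.7, 91.9 and 97.0 CPM in irradiated cells (log2 -0.02, SE 0.11) and 85.8, 98.4 and 103 CPM in etoposide cells (log2 0.03, SE 0.11). All 3 quiescent libraries lay above the cycling ones, and the other groups overlapped them. HMGCS1 footprints were at 249, 286 and 219 CPM in quiescent cells, 198, 217 and 189 CPM in irradiated cells and 207, 216 and 243 CPM in etoposide cells, each overlapping the cycling range of 210.2 to 226 CPM. None of these footprint changes passed with all libraries, and the quiescent one (log2 0.22) passed without quiescent replicate 3 (log2 0.31, adjusted p = 0.0368).

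IDI1 rose with etoposide in both assays. Its footprints were 160.2, 182 and 202 CPM, above the 111, 122 and 118 CPM of cycling cells (log2 0.63, SE 0.13, adjusted p = 0.00211). They were 148, 155 and 130.4 CPM in irradiated cells (log2 0.30, SE 0.13, adjusted p = 0.0852), and 123, 124 and 89.0 CPM in quiescent cells (log2 -0.06, SE 0.13). The irradiated change passed without quiescent replicate 3 (adjusted p = 0.0305), with RLE factors (0.0471), in DESeq2 (0.0376), with only the compared groups fitted (0.00605) and with counts of both strands (0.0084), at log2 changes up to 0.44. IDI1 mRNA was 180.1, 164 and 159.5 CPM in etoposide cells, above 122 and 117 CPM in cycling cells (log2 0.49, SE 0.17, adjusted p = 0.0397). This call was lost without any 1 of cycling replicates 1 and 2, irradiated replicate 2 and etoposide replicates 1 to 3 (adjusted p from 0.0504 to 0.18) and with counts of both strands (adjusted p = 0.063). IDI1 mRNA was 126, 139.7 and 152 CPM in irradiated cells and 110.3, 93.9 and 111 CPM in quiescent cells, with log2 changes of 0.22 and -0.18 (SE 0.17 for each) that did not pass.

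MVD footprints, 38.8, 30.8 and 43.8 CPM in cycling cells, were 50.0, 50.3 and 56.1 CPM in irradiated cells (log2 0.47, SE 0.16, adjusted p = 0.0309) and 46.2, 48.8 and 59.3 CPM in etoposide cells (log2 0.45, SE 0.16, adjusted p = 0.0392). Both rose without overlap, and both calls were lost when 1 library was left out. The irradiated call was lost without cycling replicate 1 or 2 or without any irradiated library (adjusted p from 0.058 to 0.102), and the etoposide call without cycling replicate 1 or 2, irradiated replicate 1 or 2, or etoposide replicate 2 or 3 (adjusted p from 0.0531 to 0.173). With no filter on low counts neither passed (adjusted p = 0.0589 and 0.0596). In quiescent cells they were 42.5, 39.1 and 52.5 CPM (log2 0.24, SE 0.15). MVD mRNA was 59.6, 59.4 and 31.5 CPM in quiescent cells, on both sides of the cycling values of 38.8 and 44.7 CPM. It was 48.4, 61.7 and 48.3 CPM in irradiated cells and 48.4, 56.6 and 59.5 CPM in etoposide cells, above the cycling libraries by changes that did not pass (log2 0.34 and 0.39, SE 0.23 for each) and that passed with only the compared groups fitted (adjusted p = 0.0394 and 0.0325). The quiescent change in mRNA, 0.27, passed at 0.51 (adjusted p = 0.0478) without quiescent replicate 3.

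For FDFT1 and LSS, no change of the arrested states against cycling cells passed with all libraries fitted. FDFT1 mRNA was 221, 202 and 179 CPM in quiescent, 150.3, 187 and 156 CPM in irradiated and 151, 187 and 184 CPM in etoposide cells, with log2 changes of 0.10, -0.19 and -0.11 (SE 0.14 for each). FDFT1 footprints were 675, 668 and 441 CPM in quiescent, 561, 595 and 506 CPM in irradiated and 477, 520.4 and 529 CPM in etoposide cells. The last group lay wholly below the cycling libraries (log2 -0.31, SE 0.14, adjusted p = 0.104) and passed without quiescent replicate 3 (adjusted p = 0.0174) and with only the compared groups fitted (adjusted p = 0.00825). LSS mRNA was 177, 177 and 114 CPM in quiescent, 190.2, 183 and 174 CPM in irradiated and 126, 128 and 151 CPM in etoposide cells, and none of its changes passed. LSS footprints were 246, 229.6 and 251 CPM in quiescent, 242, 260.4 and 253 CPM in irradiated and 188, 186 and 196 CPM in etoposide cells. The irradiated libraries lay above the cycling range of 209 to 232 CPM (log2 0.19, SE 0.08, adjusted p = 0.0719) and the etoposide ones below it (log2 -0.22, SE 0.08, adjusted p = 0.0503). Each of these changes passed without either thapsigargin library (adjusted p = 0.0296 and 0.0294 for irradiated, 0.0372 and 0.037 for etoposide), the irradiated one also without quiescent replicate 2 (adjusted p = 0.0435) and the etoposide one without quiescent replicate 3 (adjusted p = 0.0472). The irradiated change passed with RLE factors (adjusted p = 0.0266), in DESeq2 (adjusted p = 0.0043) and with only the compared groups fitted (adjusted p = 0.0401), and the etoposide one in DESeq2 (adjusted p = 0.0351).

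The direct comparison of irradiated with etoposide cells asks whether the route to senescence mattered. In mRNA 1 of the 8 genes passed, where 22.6% of all genes passed, and in footprints 3 passed, where 21.7% did. SQLE was lower in irradiated cells in both assays, at a mean of 32.7 ± 3.10 CPM against 65.1 ± 4.46 CPM in mRNA (SD, n = 3 each; log2 -0.99, SE 0.16, edgeR adjusted p = 0.000758). In footprints its mean was 37.3 ± 7.09 CPM against 99.7 ± 16.4 CPM (SD, n = 3 each; log2 -1.44, SE 0.26, edgeR adjusted p = 0.00203). SREBF2 footprints were also lower in irradiated cells (log2 -0.82, SE 0.21, adjusted p = 0.0136), a call lost without irradiated replicate 1 (adjusted p = 0.0509) or etoposide replicate 2 (adjusted p = 0.0516). LSS footprints were higher in irradiated cells, 252 ± 9.29 CPM against 190.0 ± 4.91 CPM (SD, n = 3 each; log2 0.41, SE 0.08, edgeR adjusted p = 0.00305). LSS mRNA had a like difference that did not pass (log2 0.44, SE 0.17, adjusted p = 0.0788) and passed without quiescent replicate 3 (adjusted p = 0.0219) and with only the compared groups fitted (adjusted p = 0.00566). For IDI1 the irradiated libraries lay below the etoposide ones in both assays without passing (log2 -0.27 in mRNA and -0.33 in footprints). The mRNA difference passed without thapsigargin replicate 1 (adjusted p = 0.0409) or 2 (adjusted p = 0.0406), and the footprint difference without quiescent replicate 3 (adjusted p = 0.0334). With only the compared groups fitted both passed (adjusted p = 0.0164 and 0.00714). The efficiency of SREBF2 was -0.70 lower on the log2 scale (SE 0.27, unadjusted p = 0.0172, adjusted p = 0.816), and 0% of all genes passed in that test. It passed at -0.76 (adjusted p = 0.00235) when only the irradiated and etoposide libraries were fitted, in which 603 genes passed.

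Against quiescent cells, the mean of the irradiated and etoposide states asks what set senescent apart from other arrested cells. In mRNA 4 of the 8 passed, where 34.3% of all genes passed, and in footprints 1 passed, where 26.1% did. IDI1 was higher in senescent cells in both assays (log2 0.54, SE 0.13, adjusted p = 0.00742 in mRNA; log2 0.53, SE 0.12, adjusted p = 0.00416 in footprints). In mRNA INSIG1 (log2 -0.43, SE 0.09, adjusted p = 0.00364) and HMGCS1 (log2 -0.31, SE 0.09, adjusted p = 0.0132) were lower. The HMGCS1 call was lost without quiescent replicate 2 (adjusted p = 0.0563), and HMGCS1 footprints (log2 -0.25, adjusted p = 0.0505) passed without any 1 of quiescent replicate 3, irradiated replicate 2, etoposide replicate 3 and either thapsigargin library. SQLE mRNA was lower too (log2 -0.38, SE 0.13, adjusted p = 0.0426), a call lost without any 1 of 9 of the 13 RNA-seq libraries (adjusted p from 0.0523 to 0.246). That mean joins unlike states: SQLE mRNA averaged 32.7 CPM in irradiated and 65.1 CPM in etoposide cells, against 60.0 CPM in quiescent cells, so only the irradiated mean was lower. SQLE footprints averaged 37.3, 99.7 and 73.7 CPM in the same order. Their senescent mean differed from quiescent cells by a log2 change of -0.28 (adjusted p = 0.364), and by -0.61 (adjusted p = 0.00302) without the Ribo-seq library of quiescent replicate 1, where all 3 irradiated libraries, but only 1 of the 3 etoposide libraries, lay below both quiescent libraries left. FDFT1 footprints (log2 -0.16) passed without quiescent replicate 3 (log2 -0.34, adjusted p = 0.014).

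The Ribo-seq library of quiescent replicate 1 lay lowest of its group for SQLE (40.4 CPM), INSIG1 (6.31 CPM) and SREBF2 (38.8 CPM), but not for HMGCS1, MVD, IDI1, FDFT1 or LSS. Its depth, 18934077 counts, was among the highest. The RNA-seq library with the same number was also the lowest of the quiescent group for SQLE (43.4 CPM) and INSIG1 (85.1 CPM). The part of this library in the quiescent results was not tested beyond leaving it out.

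Other pathway genes also fell in arrested cells, where 10.4% of all genes tested fell in mRNA in quiescent, 18.8% in irradiated and 17.8% in etoposide cells. Of the 12 other sterol enzymes, 5 fell and 0 rose in mRNA in quiescent cells and 7 fell and 0 rose in irradiated cells. In etoposide cells 2 fell and 0 rose, which is near the share of all genes. In irradiated cells the largest falls in mRNA among them were those of EBP (log2 -2.12, SE 0.24), DHCR7 (log2 -1.47, SE 0.23), MSMO1 (log2 -1.40, SE 0.19) and SC5D (log2 -1.08, SE 0.20), all enzymes that convert lanosterol to cholesterol. In footprints 7 fell and 1 rose in irradiated cells, where 22.5% of all genes fell. Between irradiated and etoposide cells, 8 of the 12 were lower and 0 higher in irradiated mRNA, where 12.9% of all genes were lower, led by CYP51A1 (log2 -1.41, SE 0.21). Of the 5 genes of SREBP processing, 4 fell in mRNA in both quiescent and irradiated cells and 1, SREBF1, in etoposide cells (log2 -1.0, SE 0.24). SCAP mRNA fell by 0.94 (SE 0.13) in quiescent and by 1.06 (SE 0.13) in irradiated cells on the log2 scale. Of the 9 genes of fatty acid synthesis, 5 fell in mRNA in each arrested state, and SCD, which desaturates fatty acids, fell in all of them (log2 -1.19, -1.82 and -1.81 in quiescent, irradiated and etoposide cells).

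**Figure D4:**
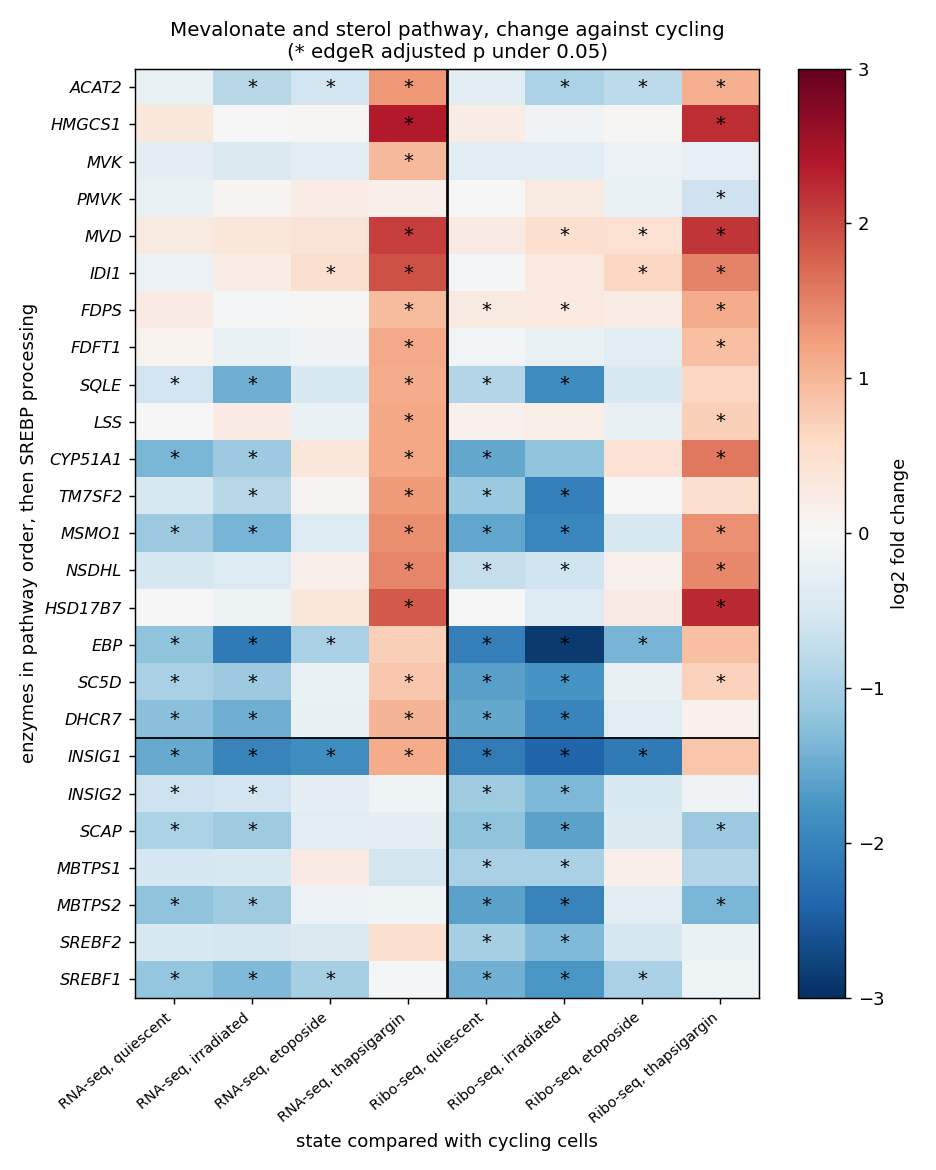
Heat map of the log2 fold change against cycling cells (colour, red higher and blue lower) of the sterol enzymes in pathway order and the genes of SREBP processing (rows) in the 4 other states, RNA-seq left and Ribo-seq right (columns), with a star where the edgeR adjusted p was under 0.05. The thapsigargin columns are red for most enzymes, with HMGCS1 at 2.37 and 2.21, and the deepest blue of the irradiated columns is at EBP, with -2.12 in RNA-seq and -2.88 in Ribo-seq.

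The 8 genes differed in how closely they followed each other. Over the 13 RNA-seq libraries all 28 pairs had a positive Pearson r of log2 CPM, from 0.51 to 0.97 with a median of 0.79. Without the thapsigargin libraries the median was 0.02 and the range -0.63 to 0.79 over 11 libraries. In Ribo-seq the medians were 0.63 over 14 libraries and -0.06 over the 12 without thapsigargin. Within those 12, INSIG1, SQLE and SREBF2 had r of 0.77 to 0.93 with each other, while HMGCS1 had r of -0.02 with IDI1 and -0.21 with MVD. INSIG1, SQLE and SREBF2 were singled out after their values were seen. As background, they encode proteins of the endoplasmic reticulum membrane, as do FDFT1 and LSS, while HMGCS1, MVD and IDI1 encode enzymes without a membrane anchor. These correlations are descriptions, since the libraries share states.

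Of the genes outside the 8, those whose level most resembled the members' mean profile were GMPPB (r = 0.987), LRAT, GATA2, HERPUD1 and SLC29A2 in RNA-seq, over 13 libraries. In Ribo-seq they were XBP1 (r = 0.990), SDF2L1, HERPUD1, PRPF3 and PNP, over 14 libraries. The members' mean profile is highest in the thapsigargin libraries, so the choice by likeness fixes that these 9 genes are high there too, and their values are given as a description: the HERPUD1 log2 fold change with thapsigargin was 3.54 (SE 0.16) in mRNA and 3.45 (SE 0.18) in footprints. HERPUD1, XBP1 and SDF2L1 are known genes of the response to stress in the endoplasmic reticulum.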

How the data were processed

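Titles in the labels gave the state of each of the 27 libraries. Per the submitters' processing notes, reads were processed with bcl2fastq and STAR 2.7.10b on genome hg38, and DESeq2 1.36.0 is named too. The authors deposited raw counts per Ensembl gene for each library in 3 strand settings, as the file layout shows, and the annotation release is not given in the sources used here. The reverse-strand column was used for RNA-seq and the forward-strand column for Ribo-seq, and the opposite strand held 3.56 to 10.7% of counts. The Ribo-seq files of cycling, quiescent, irradiated and etoposide cells list 60664 identifiers. The thapsigargin Ribo-seq files and all RNA-seq files list 62703, and the 60534 shared were used. Rows for unmapped, multimapping (9.43 to 66.9%, highest in thapsigargin Ribo-seq), ambiguous and no-feature reads were left out of library sizes. IDI1, SREBF2, INSIG1, FDFT1 and LSS overlap other genes in RefSeq, which counting by strand separates only from antisense ones.

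Computed here, in R 4.3.3: edgeR 4.0.16, TMM factors, protein-coding genes by RefSeq symbol (19148 identifiers), filterByExpr by group, and a robust quasi-likelihood F-test with all 5 states in 1 fit per assay. Efficiency was the assay by state interaction over all libraries. Benjamini-Hochberg adjustment ran over all genes tested, with a threshold of 0.05. CPM used TMM-scaled totals. Replicates differed beyond sampling noise (chi-square per degree of freedom 1.96 to 133), so none was merged. Scripts were tested on simulated counts. Alternatives were RLE factors, no filter, DESeq2 1.42.0, only the groups compared, counts of both strands, a replicate block (same-numbered libraries deviated together, with every r over 0.1, in Ribo-seq of cycling and quiescent cells, 0.186 to 0.322, and across assays in cycling, 0.156 to 0.199, and etoposide cells, 0.143 to 0.444), each library left out and, chosen after seeing the data, no thapsigargin libraries. All 8 genes were named in each comparison, and of every other list the called genes with the largest changes, at most 4. The genes and lists were chosen with earlier results of these data known. No proteins were shown, and promoter windows of SQLE and FDFT1 were not used here. A further gene of the sterol list is not reported here.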

Additional observations from a re-analysis of the deposited data

Results flagged for a closer look

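Irradiated and etoposide cells, both senescent, differed in 4 of the results for the cholesterol genes, each by the test of the difference itself. SQLE stood lower in irradiated than in etoposide cells by a log2 difference of -0.99 in RNA-seq (SE 0.16, edgeR adjusted p = 0.000758) and -1.44 in Ribo-seq (SE 0.26, edgeR adjusted p = 0.00203), and in each assay all 3 irradiated libraries lay below all 3 etoposide libraries. SREBF2 footprints differed by -0.82 (SE 0.21, edgeR adjusted p = 0.0136), likewise without overlap. LSS footprints differed the other way, by 0.41 (SE 0.08, edgeR adjusted p = 0.00305), again with no overlap. The irradiated Ribo-seq libraries held 2652013 to 5556293 counts and the etoposide ones 6159333 to 6980115, and the part of depth in these differences was not tested.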

How the results depend on the processing

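The calls of HMGCS1, MVD, IDI1, FDFT1 and LSS with thapsigargin in both assays, of INSIG1 in the arrested states in both assays, of SQLE in irradiated cells in both assays and of SREBF2 footprints in quiescent and irradiated cells held in every alternative and without any 1 library. Over the values of single genes, 668 of 720 under the other alternatives kept their direction and their side of the threshold, as did 1507 of 1620 with a library left out. These totals hold efficiency values only for the thapsigargin comparison and, in the other comparisons, for SREBF2. Where a cause of a change is not named, the cause was not tested.

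Fitting only the groups compared moved more counts than any other alternative, some down and some up. Such a fit leaves fewer libraries to estimate the spread, and the cause of the moves was not tested. In mRNA 848 genes passed in quiescent cells (2056 with all states), 1512 with thapsigargin (3244), and of the 8 genes 1 in quiescent, 4 in irradiated and 5 in etoposide cells and 3 between irradiated and etoposide cells. In footprints 5992 genes passed in etoposide cells (3993) and 4107 between irradiated and etoposide cells (2533), and of the 8 genes 6 in etoposide cells and 3 between senescent and quiescent cells, and MVD turned from 0.02 to -0.01 between irradiated and etoposide cells. In efficiency 753 genes passed in irradiated cells (2), 27 in etoposide cells (5), 1048 with thapsigargin (2425) and 603 between irradiated and etoposide cells (0), and of the 8 genes 1 in irradiated cells and 1 between irradiated and etoposide cells. With no filter on low counts, 3 of the 8 passed in footprints between senescent and quiescent cells, and in efficiency 2 genes passed in quiescent, 5 in irradiated and 13 in etoposide cells, and MVD turned to -0.01 with thapsigargin. DESeq2 called 2 of the 8 in footprints between senescent and quiescent cells. With counts of both strands, 1 of the 8 passed in etoposide mRNA, 2 in footprints between senescent and quiescent cells and 1 in efficiency with thapsigargin (LSS, -0.81), and in efficiency 1 gene passed in quiescent and 6 in irradiated cells. Without the thapsigargin libraries, 2 of the 8 passed in mRNA between irradiated and etoposide cells and 3 in footprints between senescent and quiescent cells, and in efficiency 1 gene passed in quiescent, 8 in irradiated and 14 in etoposide cells.

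Leaving out 1 library at a time, the genes that passed in mRNA numbered 699 to 2364 in quiescent, 2763 to 5204 in irradiated and 2601 to 5186 in etoposide cells, 1590 to 3794 with thapsigargin and 1855 to 3525 between irradiated and etoposide cells. The low ends came without a cycling library or, in the last case, without irradiated replicate 1 or etoposide replicate 2. In footprints they numbered 1547 to 3598 in quiescent cells (fewest without cycling replicate 3) and 1492 to 3465 between irradiated and etoposide cells. In efficiency they numbered 0 to 4 in quiescent, 1 to 33 in irradiated and 4 to 9 in etoposide cells, 1534 to 3733 with thapsigargin and 0 to 13 between irradiated and etoposide cells. Of the 8 genes, the number called in mRNA was 1 to 3 in quiescent cells, 1 to 4 in etoposide cells, 2 to 4 between senescent and quiescent cells and 1 to 2 between irradiated and etoposide cells. In footprints it was 2 to 6 in etoposide cells and 1 to 3 between senescent and quiescent cells, and in efficiency with thapsigargin 0 to 1. Some changes turned sign, none of them called with all libraries fitted: in mRNA against cycling cells LSS in quiescent cells (-0.15 to 0.21) and HMGCS1 in irradiated (-0.11 to 0.08) and etoposide cells (-0.07 to 0.12). Between senescent and quiescent mRNA these were MVD (-0.14 to 0.26), LSS (-0.17 to 0.12) and SREBF2 (-0.12 to 0.13), and between irradiated and etoposide mRNA HMGCS1 (-0.12 to 0.01), MVD (-0.19 to 0.01) and SREBF2 (-0.15 to 0.01). In footprints they were IDI1 (-0.12 to 0.08) and FDFT1 (-0.17 to 0.09) in quiescent cells, HMGCS1 in etoposide cells (-0.03 to 0.09), INSIG1 (-0.51 to 0.03) and SREBF2 (-0.22 to 0.31) between senescent and quiescent cells and MVD between irradiated and etoposide cells (-0.05 to 0.13). In efficiency with thapsigargin they were IDI1 (-0.70 to 0.01), MVD (-0.11 to 0.25) and INSIG1 (-0.82 to 0.02). Signs in the other efficiency comparisons were followed for SREBF2 alone.

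Same-numbered libraries deviated together in some comparisons, those given with the processing among them, and not in others. Their deviations had r from -0.363 to 0.680 in RNA-seq, -0.209 to 0.322 in Ribo-seq and -0.035 to 0.628 across assays. The last value was that of quiescent replicate 1. In the same order, 6 of 13, 10 of 14 and 8 of 13 libraries correlated best with their own number. For efficiency, the replicate block joined the RNA-seq and Ribo-seq libraries of the same state and number, which the labels do not give as a shared culture. With that block, efficiency gave 9 genes in etoposide cells and 1 between irradiated and etoposide cells. Within each assay the block was the library number. With it, SQLE lost its call between senescent and quiescent mRNA (adjusted p = 0.0572), and SQLE (adjusted p = 0.0274) and INSIG1 footprints (adjusted p = 0.00685) with thapsigargin and LSS footprints in etoposide cells (adjusted p = 0.0444) passed. No other call of the 8 genes changed with either block.

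Depth limited footprints most for INSIG1, with 24 to 672 counts per library. Cycling RNA-seq and both thapsigargin groups had 2 libraries, so a lone library left after leaving 1 out is assumed to vary like the other groups. DESeq2 was not run for efficiency.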
